A study of Mus musculus with 384 samples.

Results

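*Nedd4* and *Nedd4l* encode paralogous E3 ubiquitin ligases of the NEDD4 family, and they were chosen as the only rows of the table whose gene symbol is *Nedd4* or *Nedd4l*, 2 of 69 assays. The mice were male Balb/c, and micropunches of 12 regions were taken from each of 32 mice, giving 384 samples of which 380 had values. The samples are labelled by status (MS or Co) and by injection (inject or naive), with 8 mice in each of 4 label groups, namely Co naive, Co inject, MS naive and MS inject. All samples carry the age label of postnatal day 9, whereas the study describes adult animals that had grown up with limited bedding or with early handling and had later lived with social defeat or with a female companion. The labels do not pair MS, Co, inject and naive with these conditions, so no statement is made about them, and every mouse is named here by its label group only. The region labels are AMY (amygdala), BNST (bed nucleus of the stria terminalis), CER (cerebellum), PFC (prefrontal cortex), PVN (paraventricular nucleus), dCA1, vCA1, dCA3 and vCA3 (dorsal and ventral hippocampal fields CA1 and CA3), dDG and vDG (dorsal and ventral dentate gyrus) and Pit, which is not spelled out in the labels. The region names also differ from the study's description, which lists the nucleus accumbens and no Pit, so what tissue the Pit samples hold is not known from these sources.

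Ligases of this family hold a C2 domain that binds membranes, several WW domains that bind proline-rich motifs of their substrates, and a catalytic HECT domain that takes up ubiquitin from an E2 enzyme and passes it on to the substrate. NEDD4 marks receptors and signalling proteins at the plasma membrane for endocytosis and takes part in the growth of dendrites and in the turnover of glutamate receptors, whereas NEDD4L, also called NEDD4-2, is best known for removing the epithelial sodium channel and voltage-gated sodium and potassium channels from the cell surface. NEDD4L is phosphorylated by the kinases SGK1 and AKT1, which keeps it away from its substrates, and *Sgk1* is a target gene of the glucocorticoid receptor. By GENCODE M21 (mouse build GRCm38), *Nedd4* (ENSMUSG00000032216.14) lies on the plus strand of chr9:72662346-72749852 and *Nedd4l* (ENSMUSG00000024589.17) on the plus strand of chr18:64887705-65217828, and the table names NM_010890 and NM_001114386 as the transcripts assayed. The matching annotated transcripts have 29 exons for *Nedd4* and 31 exons for *Nedd4l*, and where in them the amplicons lie is not given in the sources used here.

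Levels are given as normalized reads, that is, reads of an amplicon divided by the size factor of the sample. By the reads recovered from the steps of the values, a library held between 12898 and 261007 reads over the 69 assays (median 139846), of which *Nedd4* had between 60 and 3534 reads and *Nedd4l* between 53 and 7436, so that both genes were read in every sample. *Nedd4* had a median of 1077 normalized reads over the 380 samples (446 to 2517) and *Nedd4l* a median of 904 (187 to 3722). The coefficient of variation was 32.7% for *Nedd4* and 59.7% for *Nedd4l*, so the *Nedd4l* assay varied more widely. The ratio of the 2 assays, given as log2 of *Nedd4* over *Nedd4l*, had a median of 0.07 and ran from -1.83 to 2.82, with 202 samples above 0 and 178 below 0. Since the amplicons may be copied with unequal efficiency, a ratio of 0 does not mean equal numbers of transcripts, and only differences in the ratio between samples are interpreted. In pieces of tissue, fewer cells of a type and less RNA per cell cannot be told apart.

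Samples of 6 region labels stand apart within their label. Among the samples labelled Pit, dDG and vDG, *Anxa2*, which encodes a membrane-binding annexin, fell in a lower range (70.2 to 298 normalized reads) or in an upper range (1901 to 21258) with no sample between. The upper range held 16 of 32 Pit, 8 of 32 dDG and 7 of 31 vDG samples. Among the samples labelled CER, dCA3 and vCA3, *Ociad2* had a lower range (392 to 843), which held 8 of 32 CER, 8 of 32 dCA3 and 16 of 32 vCA3 samples, and an upper range (1750 to 3780). In all, the upper *Anxa2* range held 31 samples and the lower *Ociad2* range 32, next to 30 to 32 samples with values per region label. Each range was spread almost evenly over the 4 label groups. By the study's methods each library plate held 3 brain regions, and the part of the plates in these ranges was not tested. Of the 32 mice, 9 had no sample in the upper *Anxa2* range, 16 had 1, 6 had 2 and 1 had 3. The lower *Ociad2* range held no sample of 7 mice, 1 sample of 19, 2 of 5 and 3 of 1. The panel holds no gene fixed as a marker of any region, so the labels could not be checked against defining markers, and levels are given for each label with and without these ranges.

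*Nedd4* differed among the region labels (limma F test over 12 labels, F = 36.6, adjusted p = 3.57e-51), as did *Nedd4l* (F = 24.4, adjusted p = 1.25e-36). This test called 97.1% of the 69 assays, so a difference among labels sets neither gene apart from the panel. The region label accounted for 52.7% of the sum of squares of log2 *Nedd4* and 42.3% of that of *Nedd4l*, and these shares were 62.9% and 67.9% when the range was added. The label group accounted for 0.109% and 0.423%. The *Anxa2* and *Ociad2* ranges thus moved the share of *Nedd4l* by more than that of *Nedd4*.

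The order of mean log2 levels of *Nedd4* was Pit, vDG, dDG, BNST, AMY, PFC, vCA1, vCA3, dCA1, PVN, CER and dCA3, from 10.58 to 9.62. In Pit samples, *Nedd4* had a median of 1583 normalized reads (919 to 2517). In vDG it had a median of 1380 (1011 to 2183) and in dDG of 1340 (979 to 1991). These were the labels with the highest medians, and each of them holds samples of both *Anxa2* ranges. BNST had a median of 1325 (770 to 1847), AMY of 1197 (695 to 1486) and PFC of 1147 (747 to 1793). AMY was the most even label, with a coefficient of variation of 13.5%. The levels were lower in vCA1 (median 959, 556 to 1491), vCA3 (911, 490 to 1668), dCA1 (882, 583 to 1276) and PVN (860, 446 to 1453). CER (814, 564 to 1147) and dCA3 (753, 571 to 1274) closed the order. All these ranges overlap with those of their neighbours. Of the 11 neighbouring pairs, in an order set by these same means, only PFC and vCA1 differed in mean. The difference was 0.23 on the log2 scale (two-sided permutation test, p = 0.00372, adjusted p = 0.0409 over 11 pairs), less than the SD of either label (0.30 and 0.31). More pairs differed with all samples rescaled to the same total, and also without the upper *Anxa2* and lower *Ociad2* samples.

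**Figure D1:**
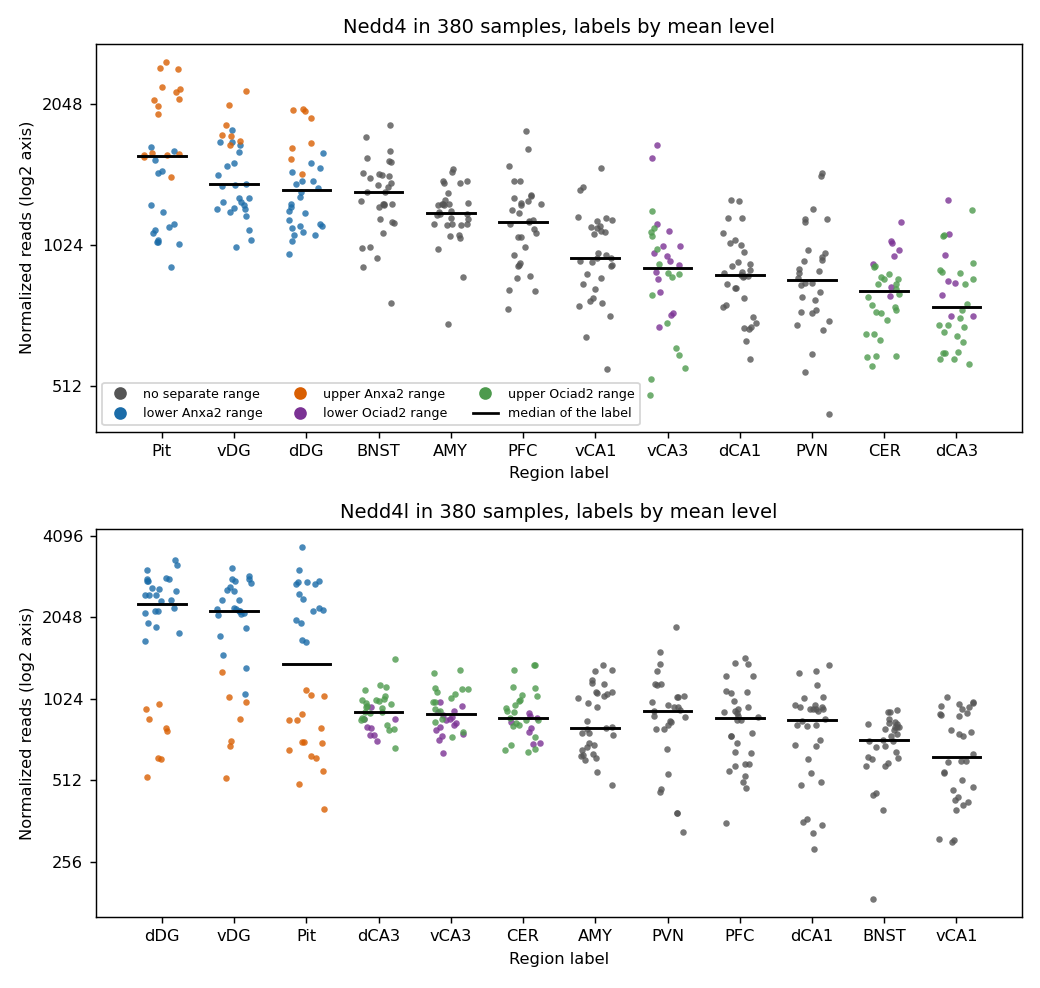
Normalized reads of *Nedd4* (top) and *Nedd4l* (bottom) on log2 axes for the 12 region labels, ordered by mean log2 level; each point is a sample, the colour gives its *Anxa2* or *Ociad2* range and the black line is the median of the label. *Nedd4* falls gradually from Pit to dCA3, whereas *Nedd4l* falls into a high set (lower *Anxa2* range, 1067 to 3722) and a low set (upper *Anxa2* range, 400 to 1289) within Pit, dDG and vDG.

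*Nedd4l* was ordered otherwise. Its mean log2 level was highest in dDG (10.83), followed by vDG, Pit, dCA3, vCA3, CER, AMY, PVN, PFC, dCA1 and BNST, and lowest in vCA1 (9.30). The medians were 2281 normalized reads in dDG (527 to 3328), 2159 in vDG (522 to 3122) and 1381 in Pit (400 to 3722). These labels reach the highest values of the gene, but each of them also holds samples at the level of the other regions. The medians of the other 9 labels lay between 623 in vCA1 (304 to 1036) and 925 in PVN (329 to 1880), and BNST was low with 723 (187 to 933). dCA3 (913, 675 to 1441) and vCA3 (901, 646 to 1306) varied least, with coefficients of variation of 16.3% and 17.0%. Of the 11 neighbouring pairs only Pit and dCA3 differed in mean, by 0.53 (permutation test, adjusted p = 0.0285), next to SDs of 0.94 and 0.22. No pair differed when all samples were rescaled to the same total.

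Set against the mean of the other 11 labels, *Nedd4* was called in 11 of 12 labels and *Nedd4l* in 7 of 12, with 59.1% of all 828 tests called (limma, adjusted p under 0.1). *Nedd4* was higher in Pit (log2 difference 0.58, SE 0.06), vDG (0.48), dDG (0.38), BNST (0.30) and AMY (0.17) and lower in dCA3 (-0.48), CER (-0.45), PVN (-0.32), dCA1 (-0.31), vCA3 (-0.29) and vCA1 (-0.16). Of all assays, 60.9% were called higher in Pit, 53.6% in vDG, 55.1% in dDG, 20.3% in BNST and 27.5% in AMY, and 24.6% were called lower in dCA3, 18.8% in CER, 30.4% in PVN, 49.3% in dCA1, 21.7% in vCA3 and 37.7% in vCA1. In PFC the *Nedd4* difference was 0.10 with an adjusted p of 0.160 from limma. *Nedd4l* was higher in dDG (1.01, SE 0.10), vDG (0.97) and Pit (0.51) and lower in vCA1 (-0.66), BNST (-0.55), dCA1 (-0.39) and PFC (-0.26), and 34.8% of all assays were called lower in BNST and likewise 34.8% in PFC. Both genes were thus higher than the mean of the other labels in Pit, dDG and vDG and lower in dCA1 and vCA1, and BNST was the label in which *Nedd4* was higher and *Nedd4l* lower. The median absolute difference over the 12 labels was 0.32 for *Nedd4* and 0.32 for *Nedd4l*, next to 0.31 over all assays. When all samples were rescaled to the same total, the *Nedd4* difference in BNST was 0.10 (limma, adjusted p = 0.154).

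The samples of the upper *Anxa2* and lower *Ociad2* ranges bear on these orders and differences. Without them the mean log2 level of *Nedd4* was highest in vDG (10.39), followed by BNST (10.33), dDG (10.28), Pit (10.24) and AMY (10.21), so that Pit was no longer first and BNST came before dDG and Pit. *Nedd4l* was then highest in dDG (11.25), Pit (11.23) and vDG (11.11), with all other labels at 9.97 or below. *Nedd4* was called in 11 labels and *Nedd4l* in 10, beside 52.7% of all tests (limma). The *Nedd4* difference in Pit was 0.28 in place of 0.58, that in PFC was called at 0.17, and that in vCA1 was at -0.08 (adjusted p = 0.244). The *Nedd4l* difference was 1.28 in Pit in place of 0.51, 1.31 in dDG and 1.14 in vDG, and AMY (-0.35), PVN (-0.35) and CER (-0.23) were called lower as well. The values over all Pit samples thus average over sets that lie apart.

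Within Pit, dDG and vDG the genes went in opposite directions between the *Anxa2* ranges. *Anxa2* separates these samples without use of either member, but the ranges were found in these data and are no group of the study, so they are described here without a test. In the upper range, the Pit samples had a median of 2050 *Nedd4* reads and 710 *Nedd4l* reads, whereas those in the lower range had medians of 1125 and 2450. In dDG the medians were 1795 and 788 in the upper range and 1220 and 2480 in the lower range. In vDG they were 1755 and 862 in the upper range and 1286 and 2206 in the lower range. *Nedd4* was thus 1.82, 1.47 and 1.36 times as high by the median in the upper range of Pit, dDG and vDG, and *Nedd4l* 0.290, 0.318 and 0.391 times. The *Nedd4l* values of the ranges did not overlap in Pit and dDG, and 1 upper vDG sample reached into the lower range, whereas *Nedd4* overlapped in all 3 labels. The log2 ratio did not overlap at all: the 31 upper samples lay between 0.44 and 2.38, and the 64 lower samples lay between -1.83 and 0.20.

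**Figure D2:**
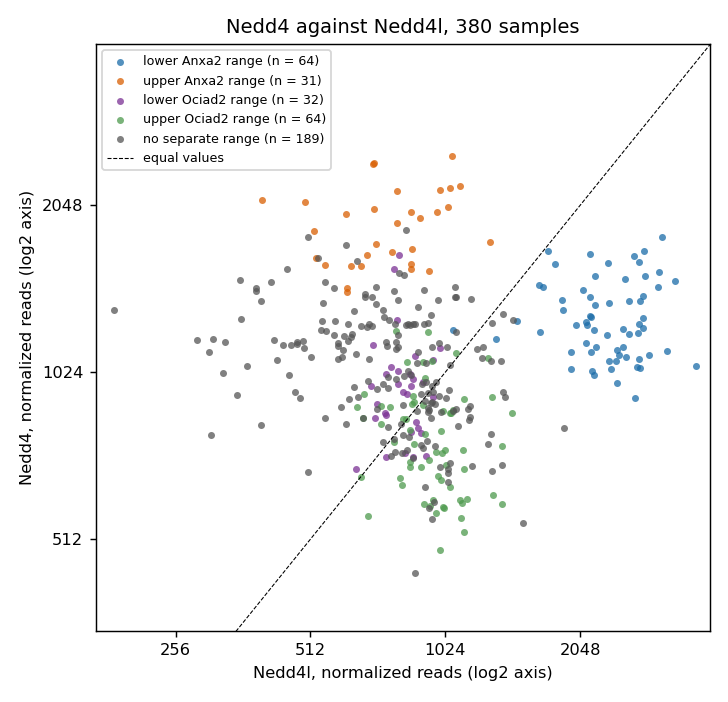
Normalized reads of *Nedd4* (vertical) against *Nedd4l* (horizontal), both on log2 axes, for 380 samples coloured by *Anxa2* or *Ociad2* range; the dashed line marks equal values. The 31 samples of the upper *Anxa2* range all lie above the line, and 63 of the 64 samples of the lower range lie below it.

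The *Ociad2* ranges of CER, dCA3 and vCA3 went along with smaller differences in the same pattern of one gene up and the other down. In CER, the medians were 982 *Nedd4* and 822 *Nedd4l* reads in the lower *Ociad2* range and 757 and 920 in the upper range. In dCA3 they were 853 and 801 in the lower range and 702 and 958 in the upper range. In vCA3 they were 955 and 844 in the lower range and 880 and 1014 in the upper range. The median log2 ratio was 0.28, 0.18 and 0.19 in the lower range and -0.29, -0.44 and -0.26 in the upper range of the 3 labels. All of these values overlapped between the ranges, with 23 of 32 lower samples above 0 and 46 of 64 upper samples below 0.

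The mean log2 ratio was 0.93 in BNST, 0.61 in vCA1, 0.48 in AMY, 0.47 in PFC, 0.23 in dCA1, 0.21 in Pit, 0.02 in PVN, -0.05 in vCA3, -0.16 in CER, -0.22 in dCA3, -0.30 in vDG and -0.42 in dDG. In BNST 30 of 31 samples had a ratio above 0, and in dDG 24 of 32 had a ratio below 0. The region label accounted for 21.1% of the sum of squares of the ratio and the label with the range for 56.8%. None of the 11 neighbouring pairs differed in mean by the test (permutation tests, lowest p = 0.0561 for BNST and vCA1, adjusted p = 0.617). Without the upper *Anxa2* and lower *Ociad2* samples, 4 of the 11 pairs differed, and the mean ratio was then -0.99 in Pit, -0.98 in dDG and -0.71 in vDG.

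**Figure D3:**
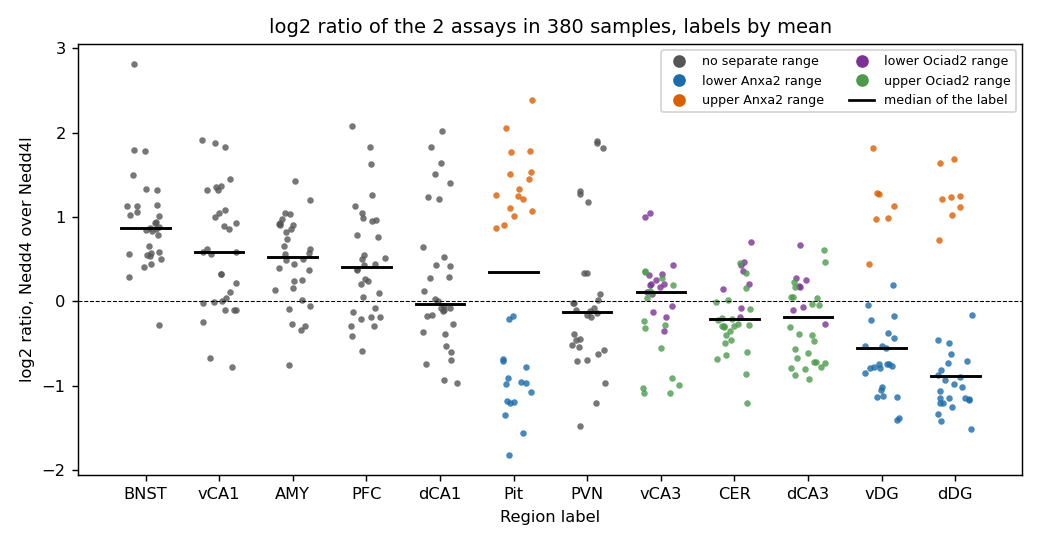
The log2 ratio of *Nedd4* over *Nedd4l* (vertical axis) for the 12 region labels in the order of their means; each point is a sample coloured by range, the black line is the median of the label and the dashed line marks 0. Pit, dDG and vDG fall into separate sets by *Anxa2* range, and 6 PVN samples lie apart at 1.18 and above.

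PVN and dCA1 also had an interval of the ratio without samples. In PVN, 6 of 30 samples lay at 1.18 or above and 24 at 0.34 or below. In dCA1, 7 of 32 samples lay at 1.22 or above and 25 at 0.65 or below. These upper sets were picked by the ratio and carry no test, and their *Ociad2* values moved with them. *Ociad2* had a median of 1128 (771 to 1492) in the 6 PVN samples and 2783 (692 to 3681) in the other 24. In dCA1 it had a median of 947 (661 to 1095) in the 7 samples and 2732 (1734 to 3555) in the other 25, with no overlap.

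Taken by *Ociad2* itself, the samples of PVN, dCA1 and vCA1 also lay on either side of an interval without samples, looked for after these values had been seen and described with no test. In vCA1, 16 samples had 713 to 1500 *Ociad2* reads and 16 had 2278 to 3388. The lower vCA1 samples had medians of 1091 *Nedd4* and 458 *Nedd4l* reads, and the upper samples 936 and 905. *Nedd4l* did not overlap between these sets (304 to 605 and 642 to 1036), whereas *Nedd4* did. The median log2 ratio was 1.20 in the lower and -0.0026 in the upper vCA1 samples, and 1.31 and -0.18 in PVN (7 and 23 samples). In dCA1 the 7 lower samples had log2 ratios of 1.22 to 2.03 and the 25 upper samples -0.97 to 0.65. The log2 ratios thus did not overlap between the sets of dCA1, overlapped slightly in vCA1, and overlapped in PVN through 1 lower sample at -1.21. In AMY, BNST and PFC such an interval was not looked for, and there the ratio was set against log2 *Ociad2* over single samples of separate mice. In PFC, Pearson's r was -0.72 (permutation test, adjusted p = 3e-05 over 3 labels) and Spearman's rho -0.64 (adjusted p = 0.00039), with r = -0.68 without the 2 samples farthest from the median of *Ociad2*. In AMY, r was -0.40 (permutation test, adjusted p = 0.0339) and rho -0.37 (adjusted p = 0.0552), with r = -0.36 without the 2 farthest samples. In BNST, r was -0.23 (permutation test, adjusted p = 0.218) and rho -0.20 (adjusted p = 0.274), which did not pass. The cause of these sets and relations, such as the place of the punch, was not tested.

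By label status, 0 of the 24 tests of the members within region labels passed the threshold of an adjusted p under 0.1 (limma, with status, injection and their interaction as terms), beside 0 of 826 tests over all assays (0%). At an unadjusted p under 0.05 there was 1 member test and 22 over all assays. *Nedd4* in BNST was this test. The 16 MS samples had 1143 to 1847 normalized reads (median 1396) and the 15 Co samples 770 to 1450 (median 1160). The groups overlapped, with 15 of 16 MS samples above the Co median. The difference MS minus Co was 0.32 on the log2 scale (SE 0.09), with an adjusted p of 0.1005 from limma over the genes of the region and 0.999 over all genes and regions together. The adjusted p lay between 0.0479 and 0.224 when each BNST sample was left out in turn and fell under 0.1 in 9 of 31 such fits. It was 0.0831 with a pseudocount of 0.1 and 0.308 with all samples rescaled to the same total, where the difference was 0.24.

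*Nedd4l* in BNST had 187 to 919 normalized reads in the MS samples (median 697) and 460 to 933 in the Co samples (median 794), a difference of -0.25 (SE 0.16, limma, adjusted p = 0.711). The direction was opposite to that of *Nedd4*, and the difference did not pass the test. The log2 ratio joins both differences and, apart from the 1 added to each value, does not depend on the size factor of the sample. In the 16 MS samples of BNST it ran from 0.45 to 2.82 with a median of 1.04, and in the 15 Co samples from -0.28 to 1.33 with a median of 0.57. The ranges overlapped, with 15 of 16 MS samples above the Co median and 13 of 15 Co samples below the MS median. The means were 1.20 and 0.64, a difference of 0.56 (SE 0.17, two-sided permutation test of unpaired samples, p = 0.00141, adjusted p = 0.0338 over 24 tests of status and injection in 12 labels). This was the only one of the 24 tests that passed the threshold.

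The BNST difference in the ratio was looked at in more ways after its value had been seen. It stayed between 0.45 and 0.61 when each BNST sample was left out in turn (highest adjusted p 0.0744), the lowest value being that without MS inject mouse 95. That sample had the lowest *Nedd4l* of all 380 samples, 187 normalized reads from 53 reads of a library of 47577 reads, and the highest ratio. In the inject mice the difference was 0.84 (permutation test, p = 0.00187, 8 MS and 7 Co samples) and in the naive mice 0.29 (p = 0.218, 8 and 8 samples). Whether the difference itself depended on injection was not tested for the ratio, and the interaction of neither gene passed the test in BNST (limma, adjusted p = 0.934 for *Nedd4* and 0.935 for *Nedd4l*). The mean MS minus Co difference of the other 11 labels was -0.04, and the BNST difference exceeded it by 0.60 (permutation of status over whole mice within inject and within naive, p = 0.00153). This test was chosen with BNST already known as the largest difference.

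**Figure D4:**
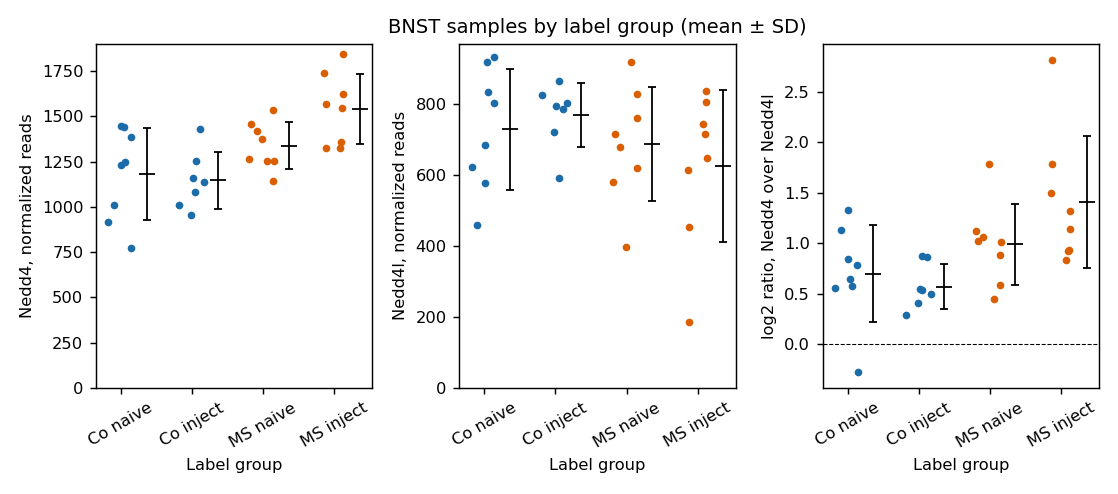
BNST samples by label group (Co in blue, MS in orange) for normalized reads of *Nedd4* and *Nedd4l* and for the log2 ratio of the assays; points are samples and bars beside them are the mean and SD of 7 or 8 samples. MS inject samples reach the highest *Nedd4* values (1325 to 1847), and the ratio of 2.82 belongs to the MS inject sample with 187 *Nedd4l* reads.

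**Figure D5:**
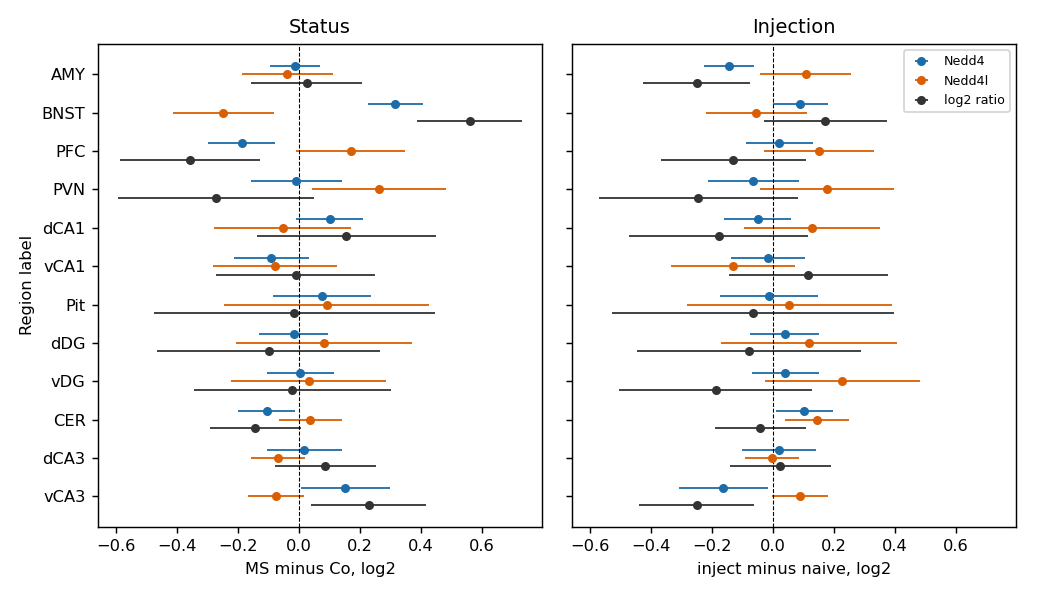
Differences by status (left, MS minus Co) and by injection (right, inject minus naive) on the log2 scale for *Nedd4*, *Nedd4l* and their log2 ratio in each region label; bars are standard errors. The ratio in BNST by status (0.56) was the only one of the 24 ratio tests to pass the threshold; no *Nedd4* or *Nedd4l* test did.

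None of the other status differences passed the test. For *Nedd4* they ran from -0.19 in PFC (SE 0.11) to 0.15 in vCA3 (SE 0.15), and for *Nedd4l* outside BNST from -0.08 in vCA1 (SE 0.20) to 0.26 in PVN (SE 0.22). PFC was the label in which the ratio was lower in MS by the most, with 0.29 in MS and 0.65 in Co, a difference of -0.36 (SE 0.23, permutation test, p = 0.130, adjusted p = 0.973). In Pit, dDG and vDG, where each label group holds samples of both *Anxa2* ranges, the errors of the *Nedd4l* differences were 0.34, 0.29 and 0.26. They were 0.22 in PVN, 0.22 in dCA1 and 0.20 in vCA1.

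By injection, 0 of 24 member tests within labels passed the threshold, beside 0.121% of all 826 tests, and 0 of 24 had an unadjusted p under 0.05, next to 31 of 826. *Nedd4* differences ran from -0.16 in vCA3 to 0.10 in CER and *Nedd4l* differences from -0.13 in vCA1 to 0.23 in vDG. In vDG the injected samples had 522 to 3122 *Nedd4l* reads and spanned the values of the naive samples, and the difference of 0.23 (SE 0.26) had an adjusted p of 0.998. Among the 24 vDG samples of the lower *Anxa2* range alone, *Nedd4l* was higher in the injected samples by 0.44 (SE 0.13, limma, adjusted p = 0.0455), where 4 of 69 assays (5.80%) were called, and with the range as a covariate over all 31 samples the difference was 0.30 (SE 0.13, adjusted p = 0.666). The interaction of status and injection gave 0 of 24 calls (0% of all 826 tests), with differences from -0.65 for *Nedd4l* in Pit to 0.40 for *Nedd4l* in vDG.

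Averaged over the regions of a mouse, the members did not differ detectably by label. The MS minus Co difference of the mouse means was 0.02 for *Nedd4* (SE 0.04) and 0.01 for *Nedd4l* (SE 0.05), both with a limma adjusted p of 0.976. The inject minus naive difference was -0.01 for *Nedd4* (SE 0.04, adjusted p = 0.981) and 0.08 for *Nedd4l* (SE 0.05, adjusted p = 0.834), where 1.45% of assays were called. For the ratio the differences were 0.01 by status (SE 0.07, permutation test, adjusted p = 0.892, 16 and 16 mice) and -0.09 by injection (SE 0.07, adjusted p = 0.477). No term of region label by status or by injection was found for either gene (limma F tests, adjusted p of 1.00 each; 0% of 69 assays called).

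The relation of the genes across mice was followed in the same samples. Over the 32 mouse means, Pearson's r of *Nedd4* and *Nedd4l* was -0.32 (permutation test, p = 0.0696) and Spearman's rho was -0.32 (p = 0.0725). Without the 2 mice farthest from the median of *Nedd4*, r was -0.32, but it was -0.10 with all samples rescaled to the same total and -0.11 without the upper *Anxa2* and lower *Ociad2* samples, so the relation did not hold under these settings. Within labels and ranges 18 such correlations were computed. Those of PVN and dCA1 were negative and passed the threshold by Pearson's r (permutation tests, adjusted p = 0.00162 each) and by Spearman's rho (adjusted p = 0.0301 and 0.0115), and they were nearly as negative with rescaled totals. The ratio falls into separate sets in these labels, so the size of a pooled r is not given. The tests of PVN and dCA1 pool these sets, so they cannot tell a relation within a set from the difference between sets. Of the other 16, none passed by Pearson's r (lowest adjusted p 0.143), and in the 24 dCA3 samples of the upper *Ociad2* range rho was -0.58 (permutation test, adjusted p = 0.0301) with r = -0.42. With rescaled totals r was 0.06 in these dCA3 samples, so the relation did not hold. Rescaling moved r in either direction elsewhere, as from 0.12 to -0.56 in the lower *Ociad2* range of vCA3 and from -0.28 to 0.17 in AMY. The rescaled values within labels carry no test.

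The list of ubiquitin and proteasome genes had 5 further members on the panel. *Ube2g2* encodes an E2 enzyme of the endoplasmic reticulum, *Peli1* an E3 ligase of innate immune signalling, *Stambpl1* a deubiquitinase, *Psmb3* a subunit of the proteasome core and *Commd1* a protein of endosomal sorting. Against the mean of the other labels, 45 of their 60 tests were called, 22 higher and 23 lower (75%), beside 75% of the 24 tests of the members and 59.1% over the panel. *Cul2* and *Vhl*, subunits of a cullin ligase, were not on this list, and with them 58 of 84 tests were called (69.0%). *Ube2g2* was highest against the other labels in dDG (0.95), as *Nedd4l* was, and lowest in AMY (-0.60). *Peli1* was also highest in dDG (0.53) and lowest in vCA1 (-0.59). *Stambpl1* ran from 0.39 in vCA1 to -0.39 in dDG, *Psmb3* from 0.47 in vCA1 to -0.59 in dCA3 and *Commd1* from 0.34 in dCA3 to -0.37 in AMY. By status, injection and interaction none of the 60 tests of each term passed the threshold, with median status differences of 0.02 for this list and 0.00 over all assays. *Akt1*, the kinase that acts on NEDD4L, was higher in 5 labels and lower in 6, with the highest difference in dDG (0.67) and the lowest in AMY (-0.46). *Nr3c1*, the glucocorticoid receptor, was higher in 3 labels and lower in 4, from 0.74 in Pit to -0.53 in PFC. Neither *Akt1* nor *Nr3c1* passed the test by label status or injection in any region, and *Sgk1* is not among the 69 assays.

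The genes most like each member in their pattern over labels were found by Pearson's r over the 12 label means of log2 values, over the 51 assays whose median reached 100. For *Nedd4* they were *Snrnp70*, a protein of the U1 spliceosome particle (r = 0.93), *Vhl*, the substrate receptor of a cullin ligase (0.79) and *Pds5a*, a cohesin regulator (0.79), and the lowest r was that of *Higd1a*, a mitochondrial protein (-0.91). Over the 380 samples centred on their label, r with these genes was 0.33, -0.08, 0.36 and -0.51, and it was 0.33, 0.16, 0.48 and -0.47 when the samples were centred also on the *Anxa2* and *Ociad2* ranges and on the *Ociad2* sets of PVN, dCA1 and vCA1. For *Nedd4l* they were *Pitpnm2*, a phosphatidylinositol transfer protein (0.97), *Ube2g2* (0.92) and *Akt1* (0.88), with *Tm2d1*, a membrane protein, at the other end (-0.96). Here the r of samples centred on their label was 0.70, 0.22, 0.44 and -0.26, and it was 0.37, 0.13, 0.16 and -0.013 when they were centred on ranges and sets as well, so the value for *Pitpnm2* within labels came down once the separate sets were taken out. *Nedd4* and *Nedd4l* themselves had r = 0.58 over the label means and r = -0.47 over the samples centred on their label, which pools the separate sets, and r = -0.13 with ranges and sets centred too. All these values describe means or samples that share mice, and the second centring was chosen after the first had been seen.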

How the data were processed

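Targeted RNA libraries (TruSeq Targeted RNA Expression) of 12 region labels of 32 mice were analysed. The deposited table holds a signal that the authors made by dividing the reads of an assay by the size factor of its sample. Per the labels and the study's methods, PRINSEQ lite 0.20.4 removed reads of low quality, BWA 0.7.12 aligned the rest and DESeq2 gave the size factors, and the labels' processing notes name the build mm10. In each sample all values are whole multiples of 1 step (100% of 26220 values, tolerance 0.01 of a read), and this step was taken as 1 read to recover the reads per library. No deposited counts were at hand to check these reads against, and no test uses them as counts. Reads of amplified libraries are not independent molecules. Animals are separate mice, and the spread is that between mice.

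Values were transformed to log2(value + 1), with no filter on low values. For each label, status, injection and their interaction were the terms of a fit by limma 3.58.1 in R 4.3.3, and p-values were adjusted by the Benjamini-Hochberg method over the assays of that label, with a threshold of 0.1. Mouse means, region labels (each against the mean of the other 11) and region label by status or injection were fitted in the same way over all 69 assays. Ratios, neighbouring labels and correlations were tested with 100000 permutations with numpy 2.4.6 and scipy 1.17.1 in Python 3.11.15. The steps were tested on simulated data. The members, the ubiquitin list, the kinase and receptor list and the alternatives were chosen with earlier results of these data known, and the rule named the members, the listed genes on the panel and, for likeness, the 3 genes of highest r and the 1 of lowest r.

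The 12 samples of a mouse share its number across labels. The consensus correlation of samples of a mouse was 0.000945, and the numbers mark the same animal. Alternatives were pseudocounts of 0.1 and 10, genes with a mean of at least 10, rescaled totals, 5 principal components of the residuals, the ranges as a covariate or left out, a threshold of 0.05, adjustment over all regions, reads summed per mouse, the mouse as a block and leaving out mice. The remaining 4 samples are marked as without processed data and were not analysed here. Amplicon and protein sequences were not analysed here.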

Additional observations from a re-analysis of the deposited data

Results flagged for a closer look

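Among 144 groups of 7 or 8 samples (4 label groups in 12 labels, for *Nedd4*, *Nedd4l* and their ratio), 4 single samples lay far from the rest of their group (2.78% of groups), fewer than the about 5% of groups that chance gives. In CER, *Nedd4* had 593 normalized reads in MS inject mouse 95, below 792 to 967 in the other samples of the group. In BNST, the same mouse had 187 *Nedd4l* reads, below 453 to 837. In PFC, the log2 ratio was 1.83 in MS naive mouse 89, above -0.42 to 0.50. In vCA3, it was -1.08 in MS inject mouse 85, below -0.13 to 0.43. These groups lie in labels with and without separate *Ociad2* ranges, and the cause of the gaps was not tested.

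The MS minus Co difference of the log2 ratio in BNST exceeded the mean difference of the other 11 labels by 0.60 (permutation of status over whole mice, p = 0.00153). The label was picked for its value, so this p does not stand as independent evidence.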

How the results depend on the processing

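Of the counts and differences that answer a comparison, 113 of 126 alternative values were rated the same, without those that left out a mouse or sample. A difference was rated the same if it kept its direction and its side of the threshold. A count was rated the same also if it changed by a small factor. The number of labels in which *Nedd4l* was called thus counted as the same, although it went from 7 to 9 with rescaled totals and to 10 without the ranges. Of 287 values that left out 1 mouse or sample, 16 changed sign, all of them differences of mouse means that were called in no fit. By status, members called within labels rose from 0 to 1 with a pseudocount of 0.1, to 1 among genes with a mean of at least 10 (in both *Nedd4* in BNST, the only one of the assays called) and to 2 with 5 principal components (*Nedd4* in BNST and vCA3). By injection the count was 1 with 5 principal components (*Nedd4* in vCA3) and 1 without the separate ranges (*Nedd4l* in vDG), and by interaction 1 with 5 principal components (*Nedd4l* in Pit). With 5 principal components, 5 of 69 assays were called by status in BNST, 18 by status and 19 by injection in vCA3 (26.1% and 27.5%) and 13 by interaction in Pit (18.8%). These components are taken from the residuals, so they lower the error and leave the difference as it was. Neighbouring labels that differed went from 1 to 4 for *Nedd4* and from 1 to 0 for *Nedd4l* with rescaled totals, and to 3 for *Nedd4* and from 0 to 4 for the ratio without the ranges. The status difference of the ratio over mice turned from 0.010 to -0.016 with reads summed per mouse. The correlation over mice was -0.10 with rescaled totals and -0.11 without the ranges. Against the other labels, rescaled totals turned *Nedd4l* to 0.056 in CER, 0.11 in dCA3 and 0.027 in vCA3, none of them called; the causes were not tested.

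In the fit that took the mouse as a block, 2 members differed among labels, *Nedd4* was called in 11 labels and *Nedd4l* in 7, and the neighbouring pairs were 1, 1 and 0, so the pairing changed no call. Leaving out each mouse in turn, the mouse means by status ran from 0.0040 to 0.032 for *Nedd4* and from -0.010 to 0.030 for *Nedd4l*, by injection from -0.022 to 0.0063 and from 0.057 to 0.10, and by interaction from -0.0067 to 0.048 and from -0.086 to -0.00052. The ratio ran from -0.023 to 0.036 by status and from -0.12 to -0.056 by injection, and the BNST ratio from 0.45 to 0.61. edgeR and DESeq2 on recovered reads were not run. Shallow libraries limit single values, the smallest *Nedd4l* value resting on 53 reads.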
